A study of Homo sapiens with 8 samples.

Results

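Krüppel-like factors (KLFs) are zinc finger transcription factors, and the 10 family members KLF2, KLF3, KLF4, KLF5, KLF6, KLF7, KLF9, KLF10, KLF11 and KLF13 were followed through the nascent RNA of IMR90 cells treated with inflachromene (ICM), a small molecule that binds HMGB proteins. They were taken by symbol from the 28265 genes counted, and the family was chosen by its measured values, since KLF7 and KLF9 lay above control after 3 days of ICM and below it after 6 days. All 10 passed the filter on low counts in every comparison. IMR90 is a line of human lung fibroblasts of fetal origin with a limited number of divisions. Nascent RNA was captured by "factory" RNA-Seq, which sequences RNA held at transcription factories, and the values used here are read pairs on exons. The paper took direct changes in transcription from introns instead. The GEO labels give poly(A) selection for these libraries, and exon reads can also come from spliced RNA. A difference in these values is therefore not by itself a difference in transcription. There were 8 libraries in 4 groups of 2: low-passage cells without ICM (control; labelled young), low-passage cells after 3 days of 10 μM ICM, after 6 days of 10 μM ICM, and low-passage cells labelled MetaICM. The series lists the last group as treated with metaICM, and what that treatment was is not given in the sources used here. Nothing in the labels says whether the 2 libraries of a group came from separate cultures, so the p-values measure the spread between these libraries, which may be technical. All groups come from 1 cell line.

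KLFs bind GC-rich boxes and CACCC elements in promoters and enhancers through zinc fingers at the carboxy terminus, which they share with the SP family, while their amino termini recruit different partners. KLF2, KLF4, KLF5, KLF6 and KLF7 mostly act as activators through acetyltransferases such as p300, KLF3 represses through CtBP, and KLF9, KLF10, KLF11 and KLF13 repress through the SIN3A-histone deacetylase complex. In fibroblasts, KLF10 and KLF11 are known as genes induced by TGF-beta, KLF6 as an early response gene that can activate collagen and TGF-beta genes, and KLF4 as a factor that restrains proliferation and is used in reprogramming.

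The libraries held 12095123 to 23166405 counted pairs. Replicates differed by more than sampling noise in every group, and most between the control libraries (Pearson's r of log2 levels 0.984 in control and 0.990 to 0.993 in the other groups). Of 8 fibroblast markers, none was at 0 in any library, and their summed level was 22093 and 22397 CPM (the count of a gene relative to the library's total, which is scaled by TMM) in control, 12363 and 13740 after 3 days, 10589 and 10883 after 6 days and 19332 and 20255 in MetaICM. The largest terms of the control sum were COL1A1 and COL1A2, at means of 8442 and 6907 CPM. After 6 days they averaged 1881 and 3673 CPM. The markers did not all move alike. COL3A1 averaged 3094 CPM in control and 2939 CPM after 6 days, and VIM 1831 CPM in control and 2948 CPM in MetaICM. Markers of other cells were low, at 1.43 to 4.94 CPM for 3 endothelial, 0.046 to 1.24 CPM for 3 epithelial and 4.39 to 21.1 CPM for 3 immune genes. The immune sum was nearly all CD68, a lysosomal protein gene, which was higher in all treated groups, while CD3E was at 0 in every library. PTPRC, on 2 to 24 counts per library, averaged 0.41 CPM in control, 0.76 after 3 days, 1.12 after 6 days and 0.24 in MetaICM. VWF, the main term of the endothelial sum, averaged 2.50, 3.99, 4.70 and 1.61 CPM in the same order. The part of these shifts in the KLF results was not tested.

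The promoters of 4 members are shown because these genes make up the contrasting profiles described next: KLF7 and KLF9 differed together, and KLF11 and KLF13 were the members past the cutoffs below control at both ICM time points. RefSeq (GRCh38.p14) gives 13 promoter windows for 8 of the members, each running from 250 bases before an annotated start to 50 after it. Capitals mark, on either strand, the GC box GGGCGG, the CACCC element, the CCAAT box, the TATA box TATAAA, the E-box letters CACGTG, and TGACGT, the core of a cAMP response element. Some of these letters overlap.
KLF7, 1 of its 4 annotated starts, the one with GC boxes (chr2:207166807-207167106, minus strand): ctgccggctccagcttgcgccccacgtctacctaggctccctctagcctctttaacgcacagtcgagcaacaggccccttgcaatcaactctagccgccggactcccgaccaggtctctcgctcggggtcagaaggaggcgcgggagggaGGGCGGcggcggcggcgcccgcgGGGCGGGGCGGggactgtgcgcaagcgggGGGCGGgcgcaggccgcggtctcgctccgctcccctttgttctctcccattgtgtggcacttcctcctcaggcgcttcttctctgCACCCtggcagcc
KLF9 (chr9:70414608-70414907, minus strand): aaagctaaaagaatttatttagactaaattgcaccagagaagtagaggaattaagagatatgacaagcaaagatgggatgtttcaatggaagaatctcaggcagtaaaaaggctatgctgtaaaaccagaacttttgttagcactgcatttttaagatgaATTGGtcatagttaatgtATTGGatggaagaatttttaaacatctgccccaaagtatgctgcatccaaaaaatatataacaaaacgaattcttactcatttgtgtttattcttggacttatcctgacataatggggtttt
KLF11, 1 of its 2 annotated starts (chr2:10043971-10044270, plus strand): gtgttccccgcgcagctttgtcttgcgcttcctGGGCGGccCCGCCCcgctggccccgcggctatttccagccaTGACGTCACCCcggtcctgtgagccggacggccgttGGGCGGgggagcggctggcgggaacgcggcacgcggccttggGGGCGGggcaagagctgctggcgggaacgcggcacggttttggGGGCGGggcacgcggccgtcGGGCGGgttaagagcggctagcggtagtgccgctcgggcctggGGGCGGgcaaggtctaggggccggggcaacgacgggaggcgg
KLF13 (chr15:31326585-31326884, plus strand): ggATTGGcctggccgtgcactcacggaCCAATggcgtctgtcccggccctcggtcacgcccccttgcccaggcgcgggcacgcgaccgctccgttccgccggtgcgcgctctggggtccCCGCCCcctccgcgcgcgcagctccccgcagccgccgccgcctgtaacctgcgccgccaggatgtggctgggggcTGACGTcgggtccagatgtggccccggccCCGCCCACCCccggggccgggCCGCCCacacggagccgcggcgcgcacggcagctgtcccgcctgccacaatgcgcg
The KLF7 window shown was 70.0% G or C with 4 GC boxes and 1 CACCC. The other 3 windows of KLF7 held no GC box, at 42.7%, 56.7% and 43.0% G or C, and 2 of them held a CCAAT box. The KLF9 window was 32.7% G or C and held 2 CCAAT boxes and no other motif of those searched. The KLF11 and KLF13 windows shown were 75.3% and 78.3% G or C with 7 and 3 GC boxes, and both held TGACGT. The other KLF11 window was 77.3% G or C with 2 GC boxes and 1 CACGTG, and it held no TGACGT. The GC box was found in 8 of the 13 windows of members and in 45.0% of all 35116 windows of this length, CACCC in 7 of 13 and 59.9% of all, and CCAAT in 6 of 13 and 34.6% of all. TATAAA was found in 1 of 13 windows (11.5% of all), CACGTG in 4 of 13 (7.26% of all) and TGACGT in 2 of 13 (7.98% of all). A match describes the letters of the window and is no measure of binding.

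KLF6 was the most abundant member in all 4 groups and KLF4 or KLF11 the least abundant. Levels between genes were compared per kilobase of exon (CPM per kb). KLF6 stood at 23.3 ± 5.68 CPM per kb in control (SD, n = 2), 21.0 ± 0.0916 after 3 days, 19.6 ± 2.45 after 6 days and 24.2 ± 5.21 in MetaICM. In control, KLF10 (11.9 ± 0.524) and KLF7 (11.2 ± 1.25) came next and overlapped each other. KLF3, KLF9 and KLF5 followed at 4.73, 4.54 and 4.08 CPM per kb, each overlapping its neighbour, then KLF2 and KLF13 at 3.56 and 3.45 with overlapping libraries, and last KLF11 and KLF4 at 1.38 and 1.24, which overlapped as well. After 3 days KLF7 held the second place at 18.3 ± 0.523 CPM per kb, clear of KLF6 above it and of KLF10 below it, and KLF9 took the fourth place. In MetaICM, KLF7 held the third place at 5.08 ± 0.222 CPM per kb and overlapped KLF3, and KLF9 had dropped to the eighth place. KLF13 stood at the ninth place after 3 days, where it overlapped KLF4, and at the eighth after 6 days.

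**Figure D1:**
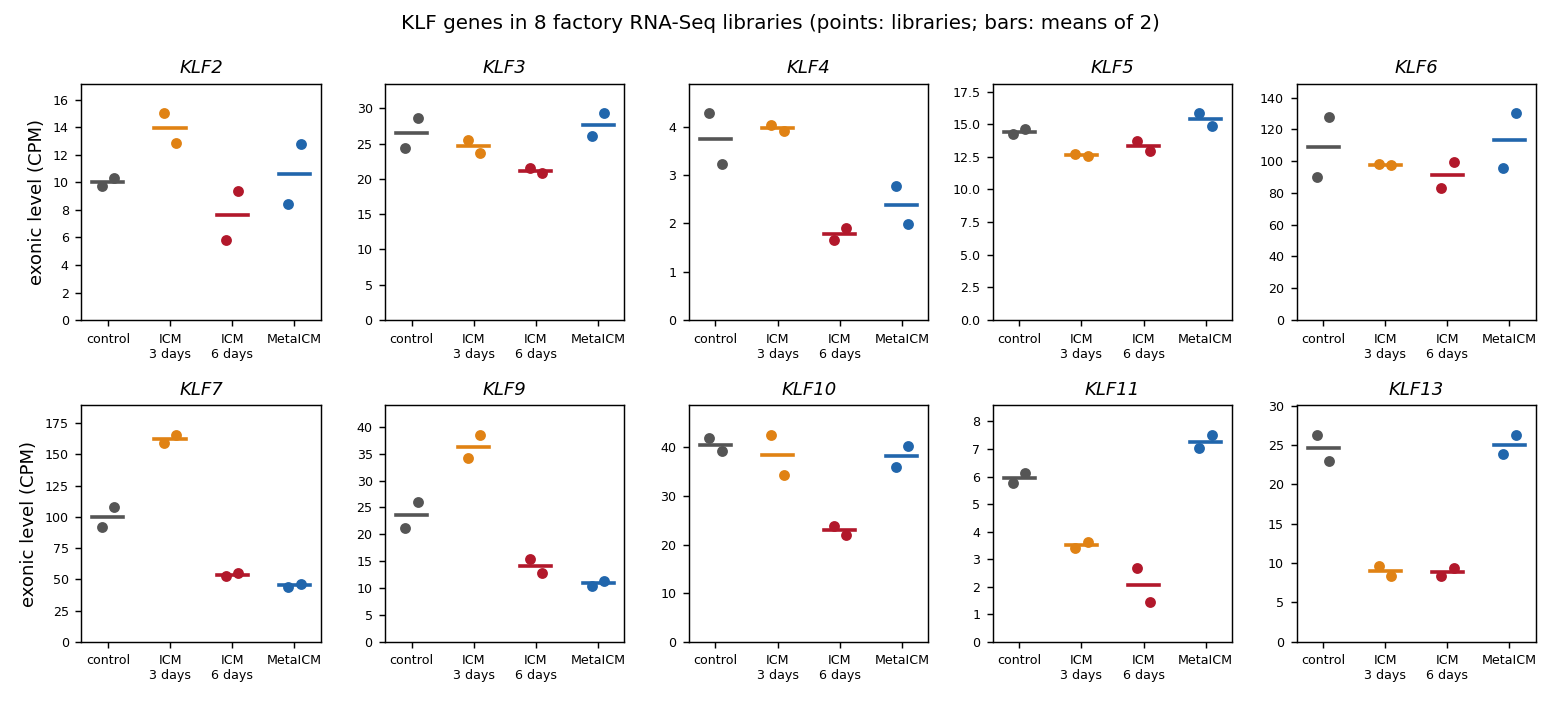
Exonic level of each of the 10 KLF genes (CPM, linear axis from 0, a scale of its own per gene) in the 2 libraries of each group (points) with their mean (bar). KLF7 and KLF9 peak after 3 days and lie lowest in MetaICM, KLF13 is low at both ICM time points, and KLF6 libraries of 1 group differ as much as groups do.

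KLF7, a broadly expressed member studied for its part in axon growth and in fat cells, lies on chromosome 2 of hg19 from 207938862 to 208031970 on the minus strand, with 8880 exon bases. Its level was 92.0 and 108 CPM in the control libraries, 159 and 165 CPM after 3 days, 52.5 and 54.8 CPM after 6 days, and 43.7 and 46.5 CPM in MetaICM. No library of one group overlapped those of another. The log2FC against control was 0.70 (standard error 0.13) after 3 days and −0.90 (0.12) after 6 days, and after 6 days relative to 3 days it was −1.60 (0.09). These 3 comparisons are the ones by which the genes were chosen, so for the members they are a description: the values and whether they lie past the cutoffs used for all genes are given, no p is printed, and nothing is supported with them. Without control replicate 1, the 3-day value was 0.59, under the cutoff of 0.6. MetaICM libraries were not used in the choice. Against the same control libraries KLF7 fell by 1.15 on the log2 scale in MetaICM (standard error 0.12, edgeR, Benjamini-Hochberg adjusted p = 0.000258), and its log2FC in MetaICM was −1.84 relative to 3 days and −0.25 relative to 6 days. In bulk libraries like these, fewer cells of a kind that transcribes a gene and less RNA per cell cannot be told apart.

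KLF9, a factor induced by glucocorticoids and thyroid hormone, lies on chromosome 9 from 72999513 to 73029573 on the minus strand, with 5208 exon bases. It was measured at 21.2 and 26.1 CPM in control, 34.2 and 38.5 CPM after 3 days, 15.4 and 12.8 CPM after 6 days, and 10.4 and 11.3 CPM in MetaICM. Here too the groups were separate, with the order 3 days, control, 6 days, MetaICM that KLF7 had. The log2FC against control was 0.62 (standard error 0.16) after 3 days and −0.75 (0.17) after 6 days, and between 6 and 3 days −1.37 (0.13), again as a description. Its 3-day value did not pass at an adjusted p under 0.01. It was also close to the log2FC cutoff, at 0.47 without control replicate 1 and 0.55 without replicate 2 of the 3-day group. After 6 days it was −0.59 if control replicate 2 was left out, and −0.62 and no longer past the cutoffs without replicate 2 of the 6-day group. In MetaICM, KLF9 fell by 1.12 on the log2 scale against control (standard error 0.16, edgeR adjusted p = 0.00117), and it kept its call under every alternative, leaving out each library included. The log2FC of KLF9 in MetaICM was −1.73 relative to 3 days and −0.37 relative to 6 days.

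Over the 8 libraries, the profiles of KLF7 and KLF9 were close to each other, which their choice by the same differences in 6 of these libraries builds in, and STK38L and LIMS1 stood nearest to both. Among 7485 genes with a mean of at least 1 CPM and an SD of log2 levels of at least 0.3, the profile most like that of KLF7 was STK38L (Pearson's r = 0.992 over 8 libraries), followed by KLF9 (0.989) and LIMS1 (0.988). For KLF9 they were KLF7 (0.989), STK38L (0.987) and LIMS1 (0.983). The points share the 4 groups and the scaling, so these correlations describe the group means more than single libraries. STK38L, a kinase gene of the Hippo pathway on chromosome 12 (27397219 to 27478890), stood at 29.5 ± 4.54 CPM in control (SD, n = 2), 39.4 ± 0.905 after 3 days, 17.7 ± 0.283 after 6 days and 15.2 ± 0.461 in MetaICM. LIMS1, an adaptor of focal adhesions on chromosome 2 (109150127 to 109303702), was at 82.3 ± 4.00, 117 ± 6.70, 56.5 ± 2.72 and 49.4 ± 0.888 CPM in the same order. Among the members themselves, the correlation ranged from −0.64 for KLF5 and KLF9 to 0.989 for KLF7 and KLF9, and it was 0.85 for KLF11 and KLF13 and −0.06 for KLF7 and KLF11.

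Of all genes, 8 were past both cutoffs (adjusted p under 0.05 and an absolute log2FC over 0.6) above control after 3 days and below the same controls after 6 days, and 4 were past them the other way. Besides KLF7 and KLF9, the 8 were BMF, CYP2S1, LOC101929532, MIR2355, MYOCD and THCAT158, and the 4 were ABCA8, BMPER, MT1E and PTPRQ; these names follow from the values. MYOCD, a coactivator of smooth muscle genes, went from 49.9 CPM in control to 94.8 after 3 days and 20.0 after 6 days. MIR2355 lies inside KLF7, between its exons and on its strand (chromosome 2, 207974711 to 207974797, 87 bases). Its counts were 49 and 26 in control, 123 and 62 after 3 days, 28 and 22 after 6 days and 20 and 24 in MetaICM, which scaled to 2.91 and 2.15, 5.65 and 4.18, 1.50 and 1.17, and 0.990 and 1.04 CPM. Its groups were in the same order as those of KLF7. MIR2355 was not past the cutoffs with DESeq2 or at an adjusted p under 0.01 at either time, nor in 2 of 4 fits with a library left out after 3 days (without control replicate 2 or replicate 1 of the 3-day group) and 3 of 4 after 6 days (without control replicate 1 or either 6-day library), so its place among the 8 depends on these choices. Unspliced KLF7 RNA and a precursor of this miRNA cannot be told apart in these counts.

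**Figure D2:**
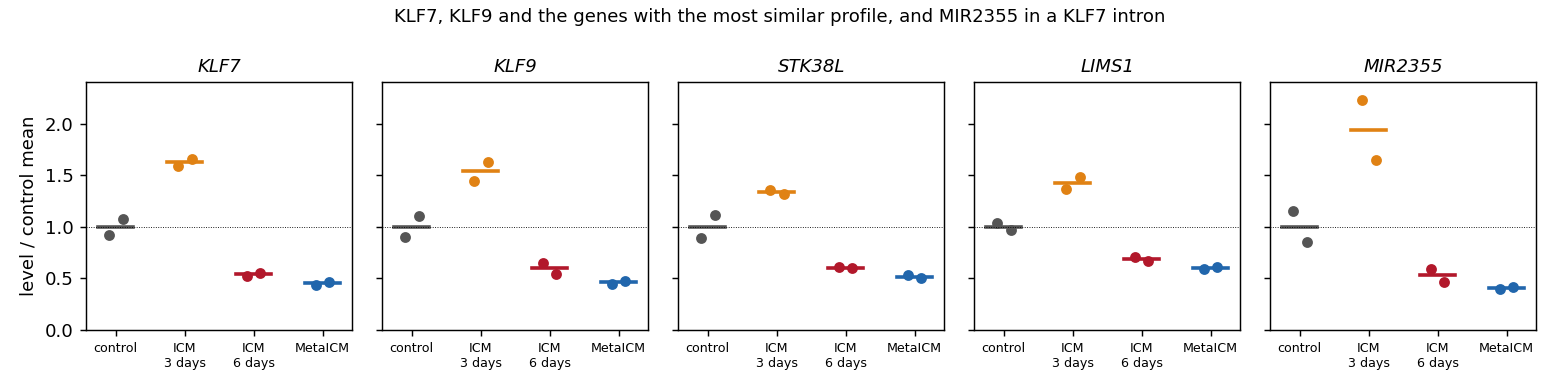
Level of KLF7, KLF9, STK38L, LIMS1 and MIR2355 in each library as a ratio to the gene's control mean (linear axis; points, libraries; bars, means of 2; dotted line, control mean). All 5 lie above 1 after 3 days and below 1 after 6 days and in MetaICM, KLF7 at mean ratios of 1.62, 0.537 and 0.452 and KLF9 at 1.54, 0.596 and 0.460.

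The members known from endothelial and epithelial cells, KLF2 and KLF4, were also lower after 6 days than after 3. KLF2, a factor of quiescent endothelium induced by flow (chromosome 19, 16435637 to 16439496, plus strand), was at 9.75 and 10.3 CPM in control, 15.0 and 12.9 CPM after 3 days, 5.85 and 9.35 CPM after 6 days and 8.42 and 12.8 CPM in MetaICM. Both 3-day libraries were above both controls and both 6-day libraries below them, but the log2FC against control was 0.48 (standard error 0.19) and −0.40 (0.23), short of the cutoff at both times. Between 6 and 3 days it was −0.89 (0.19), and −0.57 without replicate 1 of the 6-day group. KLF4 (chromosome 9, 110247133 to 110252050, minus strand) was a low gene with 31 to 88 counts per library. It was measured at 4.28 and 3.23 CPM in control, 4.05 and 3.91 CPM after 3 days, 1.66 and 1.91 CPM after 6 days and 2.77 and 2.00 CPM in MetaICM. KLF4 libraries after 6 days lay under all control and 3-day libraries, with a log2FC of −1.08 (0.28) against control and −1.16 (0.27) against 3 days. The former stayed at −0.86 to −1.26 with 1 library left out. But it was not past the cutoffs with DESeq2, at an adjusted p under 0.01, without control replicate 1 and without replicate 1 of the 6-day group.

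KLF10, KLF11 and KLF13, from the group that represses through SIN3A, were lower after 6 days of ICM. So were KLF9 of the same group and KLF4 and KLF7, which mostly act as activators. KLF13, which is known to activate CCL5 in T cells (chromosome 15, 31619038 to 31727868, plus strand), was at 26.3 and 22.9 CPM in control, 9.61 and 8.36 CPM after 3 days, 8.38 and 9.35 CPM after 6 days and 23.9 and 26.3 CPM in MetaICM. The ICM libraries were all under 10 CPM and the others all above 22 CPM, and the 3-day and 6-day libraries overlapped. The KLF13 log2FC was −1.45 (standard error 0.17) after 3 days and −1.48 (0.16) after 6 days, both past the cutoffs under every alternative, and −0.03 (0.17) between the 2 times. KLF11 (chromosome 2, 10183677 to 10194963, plus strand) was at 5.77 and 6.13 CPM in control, 3.40 and 3.64 CPM after 3 days, 2.68 and 1.43 CPM after 6 days and 7.03 and 7.51 CPM in MetaICM, on 27 to 173 counts per library. Its 4 groups did not overlap. The log2FC of KLF11 was −0.76 (0.25) after 3 days and −1.53 (0.30) after 6 days. Between 6 and 3 days it was −0.77 (0.30), not past both cutoffs, and −1.28 to −0.39 with 1 library left out. The 3-day difference was no longer past the cutoffs without control replicate 2 (−0.74) and without either 3-day library (−0.72 and −0.79). It was not past them either with DESeq2, with library totals as the scaling or at an adjusted p under 0.01. The 6-day difference ranged from −2.04 to −1.14 with 1 library left out. KLF10 (chromosome 8, 103661005 to 103667953, minus strand) was at 41.9 and 39.3 CPM in control and 42.6 and 34.2 CPM after 3 days, then at 23.9 and 22.0 CPM after 6 days, and at 36.0 and 40.3 CPM in MetaICM. Only the 6-day libraries stood apart, with a log2FC of −0.83 (0.13) against control and −0.75 (0.12) against 3 days, the latter −0.58 without replicate 1 of the 3-day group.

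KLF3, KLF5 and KLF6 varied least. KLF3, the CtBP-binding repressor (chromosome 4, 38665820 to 38703138, plus strand), ranged from 20.9 to 29.3 CPM over the 8 libraries and was lowest after 6 days, at 21.5 and 20.9 CPM, and its log2FC against control was then −0.32 (standard error 0.14). It shares 263 exon bases with its antisense gene KLF3-AS1, which had 3 to 25 counts per library. Reads were counted without regard to strand, and those that fell on both genes were left out. KLF5, a factor of proliferating epithelium and smooth muscle (chromosome 13, 73629114 to 73651680, plus strand), ranged from 12.5 to 15.8 CPM, with log2FC of −0.19 (0.17) and −0.12 (0.15) after 3 and 6 days. KLF6 (chromosome 10, 3818188 to 3827473, minus strand) was at 90.1 and 128 CPM in control, 98.2 and 97.5 CPM after 3 days, 83.3 and 99.5 CPM after 6 days and 95.8 and 130 CPM in MetaICM. The control libraries of KLF6 spanned nearly the whole range of the treated ones, and its 3-day log2FC of −0.16 (0.16) was −0.38 without control replicate 1 and 0.10 without replicate 2.

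**Figure D3:**
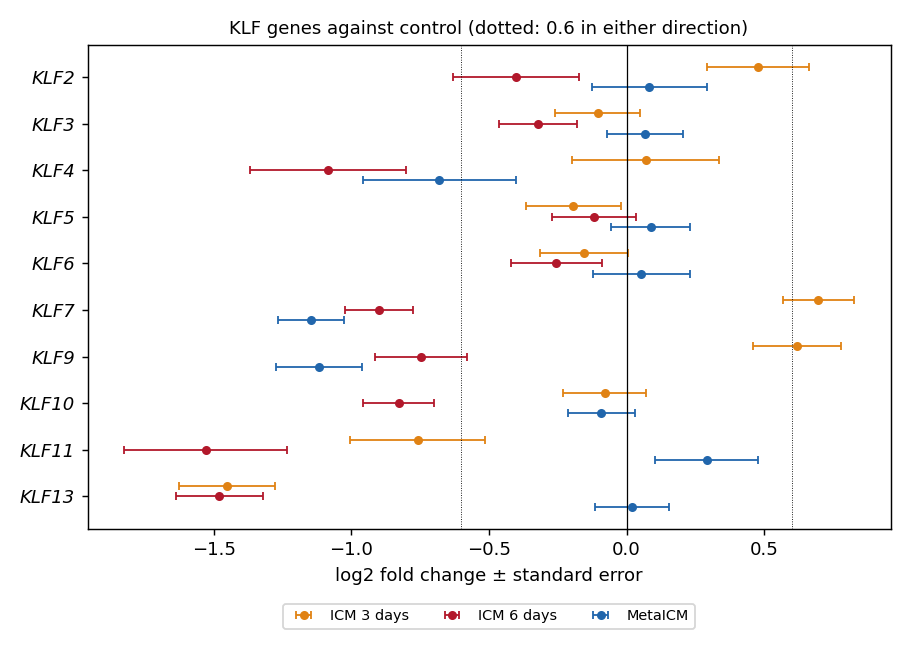
The log2FC of each KLF gene against control after 3 days of ICM, after 6 days and in MetaICM (points; bars, ± 1 standard error from edgeR fits of 4 libraries; dotted lines, ± 0.6). KLF7 and KLF9 lie on opposite sides of 0 at the 2 ICM times, KLF13 sits near −1.5 at both, and in MetaICM only KLF4, KLF7 and KLF9 lie beyond 0.6.

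After 3 days, 2 members were past both cutoffs above control (KLF7, KLF9) and 2 below it (KLF11, KLF13), where 22.0% of 15692 genes tested were called (8.85% higher, 13.2% lower). After 6 days, 6 members were below control (KLF4, KLF7, KLF9, KLF10, KLF11, KLF13) and none above, where 30.5% of 15950 genes were called (13.3% higher, 17.2% lower). Between 6 and 3 days, 5 members were lower (KLF2, KLF4, KLF7, KLF9, KLF10), where 8.07% of 15845 genes were called (3.53% higher, 4.54% lower). Since the members were chosen with these comparisons in view, nothing is read from these counts or from the medians that go with them. The median log2FC over the 10 members was −0.09 after 3 days, −0.79 after 6 days and −0.76 between the times. In MetaICM it was 0.04 against control, 0.40 against 6 days and 0.08 against 3 days. The median over all genes lay within 0.01 of 0 in each of these comparisons.

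In the MetaICM libraries, whose values took no part in the choice, 2 of 10 members differed from control, KLF7 and KLF9, both lower, where 16.4% of 15904 genes were called (7.41% higher, 8.99% lower). The comparison shares its control libraries with those that served to choose the members. KLF4 had a log2FC of −0.68 (95% interval −1.30 to −0.06) and did not pass (edgeR adjusted p = 0.0937), but it did without control replicate 2, at −0.85. For the other 7 members the log2FC lay between −0.09 and 0.29. The intervals of these differences were −0.28 to 0.32 for KLF13, −0.36 to 0.18 for KLF10 and −0.12 to 0.71 for KLF11, so a difference beyond 0.6 was left inside the interval for KLF11 and not for KLF10 or KLF13. Libraries did not overlap for 2 members above control (KLF5, KLF11) and 3 below it (KLF4, KLF7, KLF9), where 34.7% and 33.6% of all genes did not.

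Relative to 6 days of ICM, 3 of 10 members rose in MetaICM, KLF10, KLF11 and KLF13 of the SIN3A-binding group, where 27.7% of 16036 genes were called (15.7% higher, 12.0% lower). KLF11 rose by 1.82 on the log2 scale (standard error 0.23, edgeR adjusted p = 9.19e-07). KLF13 rose by 1.50 (standard error 0.12, edgeR adjusted p = 6.01e-10) and KLF10 by 0.74 (standard error 0.09, edgeR adjusted p = 9.63e-07). All 3 calls held under every alternative and with each library left out. KLF2 (0.49), KLF3 (0.39) and KLF6 (0.31) had adjusted p-values of 0.0433, 0.00198 and 0.0194 but stayed under the cutoff of 0.6. KLF2 passed it without replicate 2 of the 6-day group (0.87) or without replicate 1 of MetaICM (0.77). KLF7 (−0.25) and KLF9 (−0.37), the latter also of the SIN3A-binding group, lay below the 6-day libraries and within the cutoff. KLF4 and KLF5 stood at 0.40 (95% interval −0.17 to 0.98) and 0.20 (−0.04 to 0.45).

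Relative to 3 days of ICM, KLF11 rose by 1.06 (standard error 0.19, edgeR adjusted p = 0.000548) and KLF13 by 1.48 (standard error 0.13, edgeR adjusted p = 4.73e-07), whereas KLF4 fell by 0.74 (standard error 0.25, edgeR adjusted p = 0.0254). With KLF7 and KLF9, 5 members were past the cutoffs, 2 higher and 3 lower, where 23.4% of 16209 genes were called (13.1% higher, 10.3% lower). The call of KLF4 was lost without replicate 2 of MetaICM (−0.52), at an adjusted p under 0.01 and with DESeq2, where its adjusted p was 0.133. KLF10 did not pass, with a 95% interval of −0.25 to 0.23, and KLF2 (−0.39, edgeR adjusted p = 0.0938) passed only without replicate 2 of MetaICM (−0.74). The comparisons of MetaICM with the ICM groups share the ICM libraries with those used in the choice, so they are not independent of it.

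**Figure D4:**
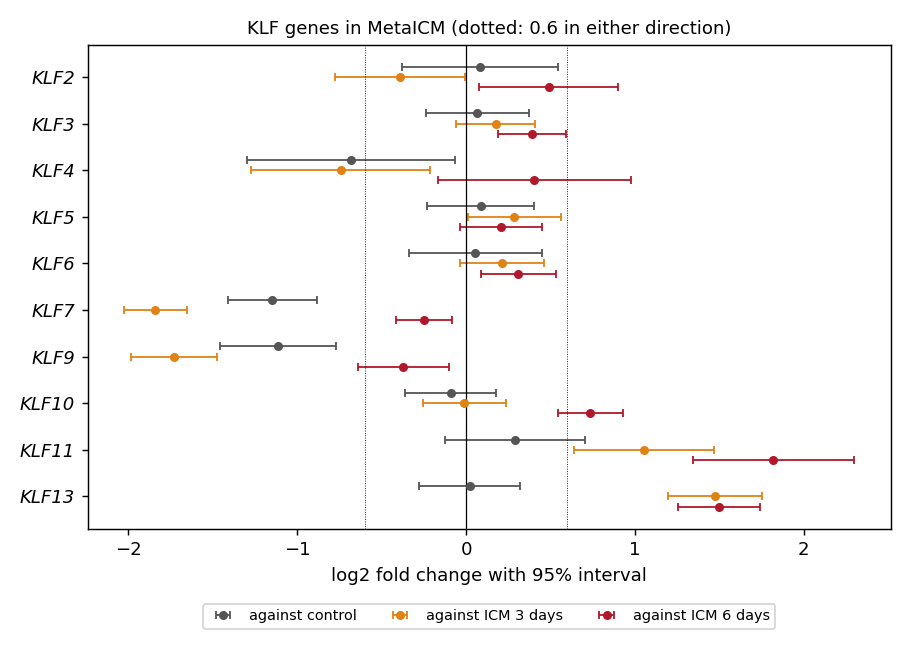
The log2FC of each KLF gene in MetaICM against control, against 3 days and against 6 days of ICM (points; bars, 95% intervals of edgeR fits of 4 libraries; dotted lines, ± 0.6). KLF11 and KLF13 lie to the right of 1 against either ICM group and at 0.29 and 0.02 against control, and KLF7 and KLF9 lie left of −1 against control and 3 days.

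Summed per kilobase of exon, the 10 members reached 64.3 and 74.6 CPM per kb in control, 74.9 and 72.6 after 3 days, 45.8 and 49.4 after 6 days and 56.0 and 67.2 in MetaICM. Both 6-day libraries lay under all others, and the control libraries overlapped the MetaICM ones. KLF7 made up 16.1% and 16.3% of this sum in control, 23.9% and 25.7% after 3 days, 12.9% and 12.5% after 6 days and 8.78% and 7.79% in MetaICM. KLF6 made up 28.1% to 28.8% after 3 days and 30.1% to 43.2% in the other libraries.

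**Figure D5:**
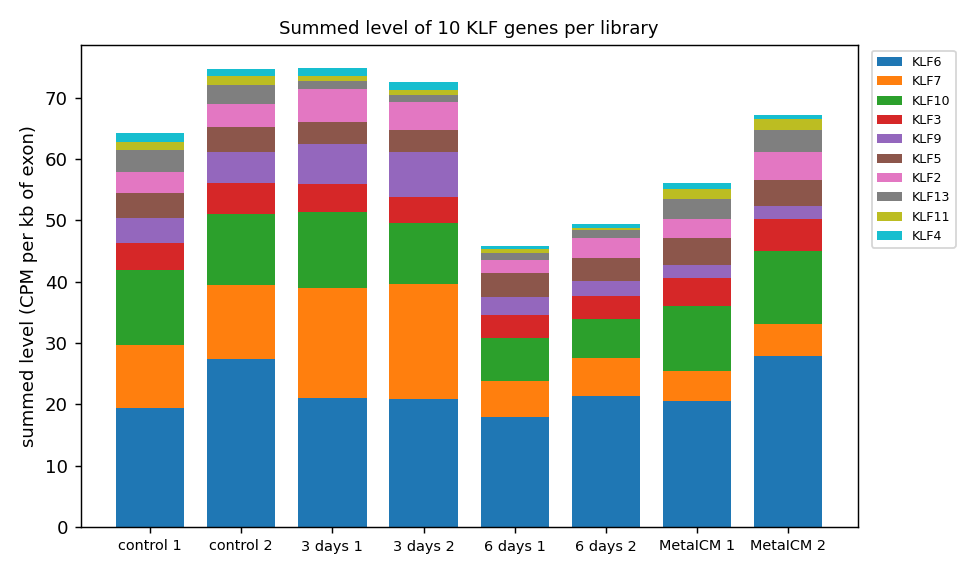
Summed level of the 10 KLF genes per library (CPM per kb of exon, bars stacked by gene from 0). The sum is lowest in the 6-day libraries, at 45.8 and 49.4, and the KLF7 block shrinks from 23.9% and 25.7% of the bar after 3 days to 8.78% and 7.79% in MetaICM.

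Of the other 8 KLF genes, KLF12 and KLF16 had sizeable counts. KLF12, which like KLF3 binds CtBP, was at 81.4 and 82.5 CPM in control, 54.2 and 63.7 CPM after 3 days, 46.0 and 48.7 CPM after 6 days and 51.2 and 49.7 CPM in MetaICM. It fell by 0.80 on the log2 scale after 6 days (standard error 0.11, edgeR adjusted p = 0.000349) and by 0.70 in MetaICM (standard error 0.11, edgeR adjusted p = 0.00186), the latter not called without replicate 2 of MetaICM. KLF16 differed in 1 comparison, rising by 0.83 from 6 days of ICM to MetaICM (standard error 0.15, edgeR adjusted p = 0.00011). KLF15 had 3 to 15 counts per library, and its call between 6 and 3 days (1.63) was lost whenever a library was left out. KLF1, KLF8, KLF14, KLF17 and KLF18 had 0 to 7 counts.

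SP proteins bind the same GC boxes. SP4 was called in 3 comparisons, with a level of 7.97 and 9.19 CPM in control, 4.05 and 4.31 CPM after 3 days, 4.62 and 3.61 CPM after 6 days and 5.10 and 5.99 CPM in MetaICM. It fell by 1.04 on the log2 scale after 3 days (edgeR adjusted p = 0.00529), by 1.06 after 6 days (edgeR adjusted p = 0.00317) and by 0.62 in MetaICM (edgeR adjusted p = 0.0375), and the last of these was lost under 4 of 7 alternatives. SP1, SP2 and SP3 passed in no comparison, with log2FC after 6 days of −0.38, −0.71 and −0.42. SP5 to SP9 had 0 to 5 counts per library.

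Partners, regulators and known targets of KLFs were taken from lists. Over all the lists together, the SP and other KLF genes included, 3 were higher and 4 lower of 43 tested after 3 days, where 22.0% of all genes were called. After 6 days 1 was higher and 5 were lower of 44 tested, where 30.5% of all genes were called, and in MetaICM 2 were higher and 6 lower than control of 43 tested, where 16.4% were called. Of 10 co-regulators (SIN3, HDAC and CtBP proteins and the acetyltransferases EP300, CREBBP and KAT2B), 1 rose and 1 fell after 3 days and none was called after 6 days. KAT2B, an acetyltransferase also called PCAF, fell by 1.07 after 3 days (edgeR adjusted p = 0.00329), from 9.63 and 10.2 CPM to 4.37 and 5.12 CPM, and was at 12.3 and 12.0 CPM in MetaICM. HDAC3 rose by 0.61 after 3 days, a call lost without control replicate 2 and without replicate 1 of the 3-day group (lowest value 0.38). EP300 and CREBBP, close relatives that acetylate histones and KLF proteins, fell by 0.74 and 0.63 in MetaICM, and both calls were lost without control replicate 2 and without replicate 2 of MetaICM. With 1 library left out, the log2FC ranged from −0.95 to −0.48 for EP300 and from −0.75 to −0.51 for CREBBP, whose call was also lost without replicate 1 of MetaICM.

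Of 11 upstream signalling genes, TGFBR1, which encodes the type I TGF-beta receptor kinase, was called most often. Its level was 139 and 156 CPM in control, 257 and 239 CPM after 3 days, 165 and 127 CPM after 6 days and 77.1 and 79.8 CPM in MetaICM. The 3-day libraries were highest and the MetaICM libraries lowest, while the 6-day libraries lay on either side of both controls. TGFBR1 rose by 0.75 after 3 days (standard error 0.13, edgeR adjusted p = 0.000896) and fell by 0.91 in MetaICM (standard error 0.11, edgeR adjusted p = 0.000524), and after 6 days its log2FC against control was −0.02. MAP2K5, the kinase upstream of ERK5 and KLF2, fell by 0.93 in MetaICM (edgeR adjusted p = 0.0142), a call lost without control replicate 2 and without replicate 2 of MetaICM (range −1.25 to −0.56 with 1 library left out). MEF2D, a factor that activates KLF2, fell by 0.70 between 3 and 6 days (edgeR adjusted p = 9.31e-05).

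Of 5 genes that act in the turnover of KLF proteins, SIAH1 alone was called, after 6 days and in 1 of 4 fits with a library left out. Of 15 genes known as KLF targets in other cells, 11 were tested. After 3 days 1 was higher and 2 were lower (22.0% of all genes called), and after 6 days 1 was higher and 2 were lower (30.5% of all genes). In MetaICM 2 were higher than control and 0 lower (16.4% of all genes), 4 were higher and 1 lower relative to 6 days of ICM (27.7%), and 5 were higher and 3 lower relative to 3 days (23.4%). At both ICM times the higher gene was CDKN1A, and the lower ones were COL1A1 and TAGLN. CDKN1A rose by 2.63 after 3 days (edgeR adjusted p = 5.39e-07) and by 2.77 after 6 days (edgeR adjusted p = 6.45e-07). In MetaICM it rose by 1.69 (edgeR adjusted p = 0.000133). COL1A1 fell by 1.23 after 3 days and by 2.17 after 6 days. CCND1, the cyclin D1 gene, rose by 1.37 in MetaICM (standard error 0.14, edgeR adjusted p = 0.000196), from 463 and 373 CPM in control to 1079 and 1088 CPM. TAGLN, a smooth muscle and myofibroblast gene, was at 528 and 392 CPM in control, 70.8 and 60.2 CPM after 3 days, 48.2 and 57.0 CPM after 6 days and 453 and 510 CPM in MetaICM. It fell by 2.81 after 3 days (edgeR adjusted p = 1.37e-07) and by 3.13 after 6 days (edgeR adjusted p = 2.70e-07), and like KLF13 it had control and MetaICM libraries that overlapped. SMAD7, an inhibitor of TGF-beta signalling, fell by 0.89 between 3 and 6 days (edgeR adjusted p = 0.000165), from 17.6 and 17.2 CPM to 9.40 and 9.46 CPM.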

How the data were processed

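Factory RNA-Seq libraries of IMR90 cells were used as deposited: for each library the authors gave raw counts, that is, how many read pairs fell on exons of each RefSeq gene. Per the submitters' notes and file headers, reads were aligned to GRCh37 (hg19) with STAR (version 2.6.0c) and counted with featureCounts (version 1.6.3) as primary pairs with both ends mapped, without chimeric pairs, without regard to strand, and leaving out reads on several places or genes. The GEO labels give poly(A) selection for these libraries. The paper's nascent RNA values rest on introns and were not analysed here. The deposited tables also hold exon coordinates and gene length.

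Each pair of groups (6 comparisons, 4 libraries each) was fitted with edgeR (version 4.0.16, R 4.3.3) with TMM factors, filterByExpr at a count minimum of 10, the quasi-likelihood test and Benjamini-Hochberg adjustment over all genes tested. A gene was called with an adjusted p under 0.05 and an absolute log2FC over 0.6. Standard errors are the log2FC divided by the square root of F. CPM used TMM factors over 8 libraries, and correlations log2 CPM with a prior count of 2. For each group 2 libraries limit the precision, and genes under about 100 counts are the least precise. The members and gene lists were chosen with earlier results of these data known. Named genes are the 10 members, list genes called in at least 1 comparison, list genes not passing, the 3 genes most like KLF7 and KLF9, and genes whose exons overlap a member; others are marked. In the comparisons between control, 3 days and 6 days, the fits cover the members too, but since these comparisons chose them, only values and the cutoffs passed are given for members, as a description. The alternatives were an adjusted p of 0.01, DESeq2 (version 1.42.0), its size factors or library totals, no filter on low counts, 1 fit of all 8 libraries, the replicate number as a block and each library left out. The correlation of same-number deviations was −0.11 to 0.17, which does not settle whether replicate numbers pair the libraries. The main fits used no pairing. The fits were also run on simulated counts with the same spread for all genes. That run checks the code and does not measure the error rate in these libraries. Promoter windows came from RefSeq on GRCh38.p14, and coordinates of genes from the deposited hg19 files. Figures used Python 3.11.15 and matplotlib 3.10.9.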

Additional observations from a re-analysis of the deposited data

Results flagged for a closer look

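KLF7, KLF9, KLF2, KLF5 and KLF11 had every library of one treated group above both controls and every library of another below them. The differences named here come from that pattern, and the difference itself was not tested in this way. How many of all genes share the pattern was not counted. Separate libraries were common: in MetaICM against control, 34.7% of 15904 genes lay wholly above control and 33.6% wholly below it. Nothing about the family is read from the pattern. KLF7 stood higher after 3 days than after 6 days of ICM by 1.6 in mean log2 CPM and higher than in MetaICM by 1.84. KLF9 stood higher after 3 days by 1.36 and 1.73 in the same order. KLF2 was higher after 3 days than after 6 days by 0.901. KLF11 was higher in MetaICM than after 3 days by 1.02 and than after 6 days by 1.83. KLF5 was higher in MetaICM than after 3 days by 0.279 and than after 6 days by 0.204. With 2 libraries in each group, no library could be tested as an outlier.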

How the results depend on the processing

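Except after 3 days, the number of members past the cutoffs stayed within 1.5 times its value under every alternative. After 3 days it went from 4 to 2 at an adjusted p under 0.01, where KLF9 and KLF11 were lost. With each library left out it was 2 to 3 after 3 days (2 without control replicate 1 or without replicate 2 of the 3-day group), 5 after 6 days, 4 to 5 between the times, 2 to 3 for MetaICM against control, 3 to 4 against 6 days and 5 against 3 days. These fits use 3 libraries, and the lone one is assumed to vary like the pair. With the replicate number as a block, 4, 6, 6, 2, 3 and 5 members were past the cutoffs in the 6 comparisons; the block moved the genes called from 3456 to 3915 after 3 days, 4859 to 5116 after 6 days, 1278 to 1450 between the times, 2609 to 2823 in MetaICM against control, 4447 to 4484 against 6 days and 3798 to 3799 against 3 days. With crossed numbers, added after the data were seen, the last was 3956 with 5 members. Over all genes, 2301 were called after 3 days without replicate 1 of the 3-day group, against 3456, DESeq2 called 850 between the times, and MetaICM against control gave 1532 at an adjusted p under 0.01 and 1049 to 4086 with a library left out.

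Members near 0 changed sign with a library left out. In MetaICM against control the ranges were −0.24 to 0.37 for KLF2, −0.040 to 0.19 for KLF3, −0.17 to 0.33 for KLF6, −0.16 to 0.013 for KLF10 and −0.067 to 0.13 for KLF13. Against 3 days the range was −0.031 to 0.42 for KLF6 and −0.15 to 0.16 for KLF10, and KLF10 was at 0.0056 without the filter. The cause was not tested. At 27 to 173 counts, KLF4 and KLF11 are limited most by depth.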
